A study of Mus musculus with 24 samples.

Results

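The 10 genes described here encode parts of the neuronal cytoskeleton and of the synapse: Tubb3, Map2, Stmn2, Dcx, Gap43, Syt1, Snap25, Rbfox3, Nefl and Nefm. They were chosen by gene symbol, and all 10 were found among the 49315 genes counted in each library. They were measured by sequencing of poly(A)-selected mRNA in 24 libraries of primary murine astrocytes. The values give the transcripts of these genes that such cultures hold, whatever cells they come from. The study asked how gene expression in astrocytes responds to a low and a moderate X-ray dose at an early and a later time. In all, 4 libraries, numbered n1 to n4 in the labels, were made for each of 6 groups: 0 Gy (mock), 0.1 Gy and 2 Gy, each harvested 6 h or 24 h after exposure. All groups shared the C57BL/6J strain, the wild type genotype, the cortex as tissue and a first passage of the cells. The cells came from E18.5 embryos, those of 1 pregnant mouse being pooled, and were exposed to 200 kV X-rays at 1 Gy/min 3 days after seeding. The labels call the 4 libraries of a group biological repeats but do not say which culture each number stands for.

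Neurons are built around microtubules and neurofilaments. Tubb3 (class III beta-tubulin) forms microtubules, Map2 and Dcx bind them in dendrites and in migrating young neurons, and Stmn2 destabilises them in growth cones. Gap43 is a membrane phosphoprotein of growth cones, and Nefl and Nefm are the light and medium neurofilament subunits. Syt1 is the calcium sensor of synaptic vesicle release, Snap25 is a SNARE protein of the plasma membrane that drives vesicle fusion, and Rbfox3 is the splicing factor known as the nuclear antigen NeuN of mature neurons. Several of these genes are also transcribed in neural progenitors and in cultured glia, whereas Rbfox3, Nefl and Snap25 are used as markers of differentiated neurons.

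Sequence ahead of the gene is shown for 4 genes: Map2 and Dcx, whose levels moved together across libraries, Tubb3, one of the most abundant members per length, and Syt1, the member called between the 2 times after 0.1 Gy. The letters are from RefSeq (GRCm38.p6), read 5′ to 3′ on the gene's strand, and end just before the first base of the gene as counted. Capitals mark the GC box GGGCGG, the CCAAT box CCAAT and the TATA box TATAAA, searched on both strands (ATTGG is the CCAAT box on the other strand). No RefSeq promoter was listed for Stmn2, Gap43, Snap25, Nefl and Nefm, and that of Rbfox3 lay inside the gene and is not shown.
Tubb3, chr8:123411303-123411423, plus strand: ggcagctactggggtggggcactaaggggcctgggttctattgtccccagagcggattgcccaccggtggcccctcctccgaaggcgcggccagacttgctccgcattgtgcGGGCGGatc
Map2, chr1:66175079-66175272, plus strand: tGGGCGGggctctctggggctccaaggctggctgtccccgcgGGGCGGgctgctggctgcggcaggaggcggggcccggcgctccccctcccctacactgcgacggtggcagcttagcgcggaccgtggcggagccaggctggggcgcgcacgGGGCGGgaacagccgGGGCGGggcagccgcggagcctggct
Dcx, chrX:143933312-143933469, minus strand: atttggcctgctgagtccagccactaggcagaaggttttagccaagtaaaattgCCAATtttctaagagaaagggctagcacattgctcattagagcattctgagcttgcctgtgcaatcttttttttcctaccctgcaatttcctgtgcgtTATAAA
Syt1, chr10:109010983-109011225, minus strand: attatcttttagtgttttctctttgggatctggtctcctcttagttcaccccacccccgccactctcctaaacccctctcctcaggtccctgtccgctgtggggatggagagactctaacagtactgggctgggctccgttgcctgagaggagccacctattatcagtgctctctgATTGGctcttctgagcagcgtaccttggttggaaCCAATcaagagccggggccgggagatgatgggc

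The 4 stretches differed in composition. The Map2 stretch held 79.4% G and C, 22 CG pairs and 4 GC boxes, and 23.6% of the 32851 listed promoters held at least 1 GC box in the same 194 bases. The Tubb3 stretch (67.8% G and C) held 1 GC box, which 12.9% of promoters held in 121 bases. The Dcx stretch held 42.4% G and C and ended in a TATA box, found in 7.57% of promoters over 158 bases, and it held 1 CCAAT box (21.2% of promoters). The Syt1 stretch (55.1% G and C) held 2 CCAAT boxes, and 33.3% of promoters held 1 or more in 243 bases. The E-box CAGCTG and the RE1 motif TCAGCACC, searched in the same way, were in none of the 4 stretches, and between 0.545% and 12.6% of promoters held them at these lengths. Map2 and Dcx, which moved together, had none of the searched motifs in common.

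The 10 genes fell into 3 levels. Per kilobase of exon, the only scale on which levels are compared between genes here, Stmn2 (38.2 CPM, counts scaled to library size, per kilobase), Tubb3 (36.4), Gap43 (31.0) and Map2 (13.6) lay above the median of 4.17 over the 17353 genes with enough counts. Their places among those genes were at the 92.5, 92.2, 90.6 and 77.0 percentiles. Nefm (0.747 CPM per kilobase) and Syt1 (0.386) formed a middle level at the 22.9 and 14.8 percentiles. Snap25 (0.0467), Rbfox3 (0.0436), Dcx (0.0348) and Nefl (0.0281 CPM per kilobase) lay under the 1st percentile, with highest raw counts of 36, 25, 37 and 10 in any library. Snap25 was at 0 in 2 libraries, Rbfox3 in 1 and Nefl in 6. A count of 0 allowed a level of between 0.0863 and 0.204 CPM in these libraries, a limit that covers counting error only. The genes whose products mark differentiated neurons were thus near the detection limit, while 4 genes of the microtubule and growth cone apparatus were abundant.

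**Figure D1:**
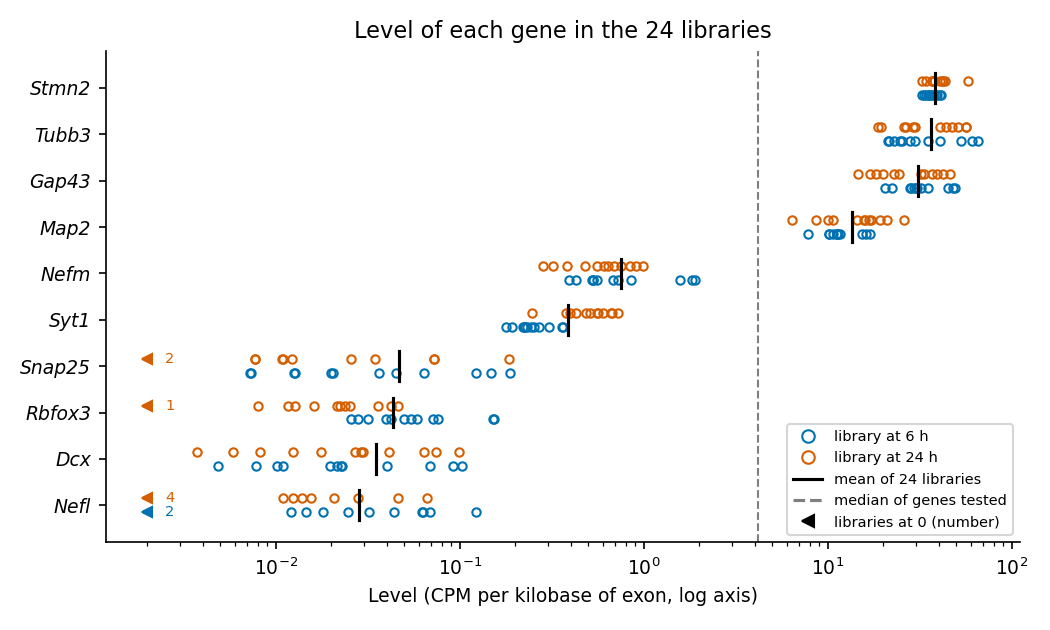
Level of each gene in CPM per kilobase of exon (log axis), with a circle for every library at 6 h (blue) and 24 h (orange), a black bar for the mean of 24 libraries, and triangles with the number of libraries at 0. Stmn2, Tubb3, Gap43 and Map2 lie right of the dashed median of the genes tested (4.17), and the other 6 genes lie left of it.

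Other markers of the cultures set these levels in context. The 12 astrocyte markers had a median of 63.2 CPM per kilobase, led by Fabp7 (446), a fatty acid binding protein of radial glia and astrocytes, and Glul (165), glutamine synthetase. The cell type label was met by its defining markers, with Gfap at 123, Aqp4 at 106 and Aldh1l1 at 67.9 CPM per kilobase, while Slc1a2 (3.86) and S100b (1.90) lay below the median of all genes and Gjb6 was near 0 (0.0715). Progenitor genes were also abundant (Vim 1318 and Nes 238 CPM per kilobase), as were the leading genes of the oligodendrocyte lineage (Olig1 146 and Olig2 40.6, over a list median of 3.34) and of microglia (C1qa 296 and Csf1r 90.5). The 8 fibroblast and vessel markers had a median of 2.34 CPM per kilobase, with Col1a1 (69.3) and Col1a2 (21) the highest and Lum (0.0569) and Cldn5 (0.00465) near 0. Beyond the 10 genes, 16 further genes of the neuronal cytoskeleton and growth cone had a median of 14.9 CPM per kilobase (Tubb2b 390 and Tubb2a 249, both beta-tubulins), and 15 further presynaptic genes one of 3.2 (Vamp2, of the vesicle fusion machinery, 20.8). The 19 other genes of neuronal identity had a median of 0.124 CPM per kilobase, led by Dlx2 (5.07) and Celf4 (4.85), and 6 of them, among them Neurod2 at 0 in all 24 libraries, did not pass the filter on low counts. In these bulk libraries the number of neurons, the RNA per neuron and transcription of these genes in other cells cannot be told apart.

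The libraries held between 14742855 and 38194800 counted reads (median 24829888.5), and no 2 libraries of a group were as close as sampling noise. Libraries numbered n2 stood apart in every group. The summed level of the 8 microglia markers was between 58.2 and 82.6 CPM per kilobase in the 6 n2 libraries and between 415 and 874 in the other 18, with none of the 8 genes at 0. Over the 10 neuronal genes, whose sum comes almost entirely from Stmn2, Tubb3, Gap43 and Map2, the n2 libraries reached 165 ± 4.10 CPM per kilobase at 6 h (SD, n = 3 doses), against 111 ± 7.11 for n1, 102 ± 3.13 for n3 and 97.9 ± 8.39 for n4. At 24 h the sums were 156 ± 4.57 for n2, 134 ± 16.1 for n3, 103 ± 0.941 for n1 and 95.4 ± 4.70 for n4. Astrocyte markers were lowest in n2 at both times, at 1121 ± 43.9 and 801 ± 43.1 CPM per kilobase. The summed oligodendrocyte lineage markers were highest in n2, at 285 ± 20.8 CPM per kilobase at 6 h (138 to 194 for the means of the other numbers) and 319 ± 67.6 at 24 h (188 to 285). So were the other genes of neuronal identity (23.1 ± 0.467 and 16.5 ± 1.04). The sums of the other cytoskeleton and growth cone genes were not highest in n2. They were 1113 for n2 against 1187 for n1 at 6 h, and 859 against 1001 for n3 at 24 h. The other presynaptic genes were highest in n2 at 6 h (106) but not at 24 h (79.7, against 87.0 for n3 and 82.0 for n4). Fibroblast and vessel markers were higher in n1 and n2 (183 and 160 CPM per kilobase at 6 h) than in n3 and n4 (61.1 and 47.7). The part of the culture's makeup in the results below was not tested. Calls are given again without n2 where stated.

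**Figure D2:**
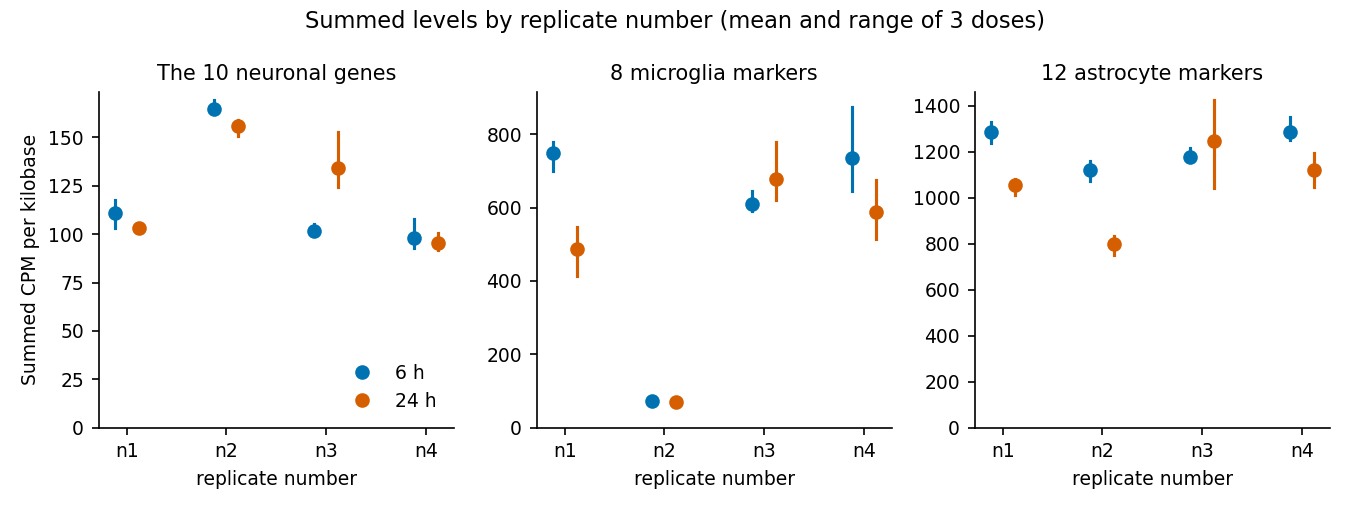
Summed level (CPM per kilobase) of the 10 neuronal genes, of 8 microglia markers and of 12 astrocyte markers by replicate number, with the mean (circle) and the range (line) of the 3 doses at 6 h (blue) and 24 h (orange). In n2 the neuronal sum was the highest (165 at 6 h and 156 at 24 h) and the microglia sum the lowest (72.9 and 70.8).

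The replicate number accounted for most of the spread of the neuronal genes. In a test of the number within each time with the dose in the model (edgeR quasi-likelihood test, Benjamini-Hochberg adjustment, chosen after the data were seen), 8 of the 9 members tested passed at 6 h, where 53.1% of all genes did, and 6 of the 7 tested at 24 h, where 69.6% did. Stmn2 did not pass at either time (adjusted p = 0.13 and 0.074, same test). The number held a median of 82.9% of a member's log2 variance at 6 h and 83.5% at 24 h, beside 63.8% and 67.6% over all genes. The dose held 2.23% and 3.93% of it, beside 7.13% and 10.8%. At 6 h the 3 n2 libraries lay above the 9 others for Tubb3, Map2, Dcx, Gap43, Syt1, Snap25 and Nefm. At 24 h they did so only for Dcx, Gap43 and Snap25.

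Snap25 showed the widest gap between numbers. At 6 h its level was 1.03 ± 0.220 CPM in n2 (SD, n = 3) and 0.170 CPM on average in the other 9 libraries, a ratio of 6.08, and at 24 h the ratio was 9.02 (0.746 against 0.0827 CPM). These levels rested on 11 to 36 counts in n2 and on 0 to 11 elsewhere. Dcx, which marks young neurons, was 4.92 times higher in n2 than in the others at 6 h (1.11 against 0.225 CPM) and 4.09 times at 24 h (1.00 against 0.245 CPM). Nefm was 3.05 times higher in n2 at 6 h (10.2 against 3.34 CPM) but 1.46 times at 24 h, where n2 overlapped n3 and n4. Tubb3 was 2.15 times higher in n2 at 6 h, and at 24 h n3 was at 84.1 ± 9.67 CPM against 43.3 ± 3.82 at 6 h, beside n2 at 99.8 ± 10.3 (SD, n = 3).

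Across the 24 libraries, Tubb3 and Gap43 had the closest log2 levels (Pearson r = 0.83), followed by Map2 and Dcx (r = 0.80) and Snap25 and Nefm (r = 0.74). Tubb3 and Map2, both of the microtubule, were only weakly alike (r = 0.23), and Map2 and Stmn2 ran opposite (r = -0.39). These values describe 24 libraries that share 4 replicate numbers and 2 times. The genes outside the 10 that were most like their mean standardised log2 level were Gpc3 (r = 0.95), Vxn (0.95), Mfap4 (0.94), Card10 (0.94) and Nell2 (0.94). Those most like Dcx alone were Cxadr (r = 0.93), Hecw1 (0.93), Stt3b (0.92), Vipr2 (0.92) and Dsc2 (0.92), over the same 24 libraries.

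**Figure D3:**
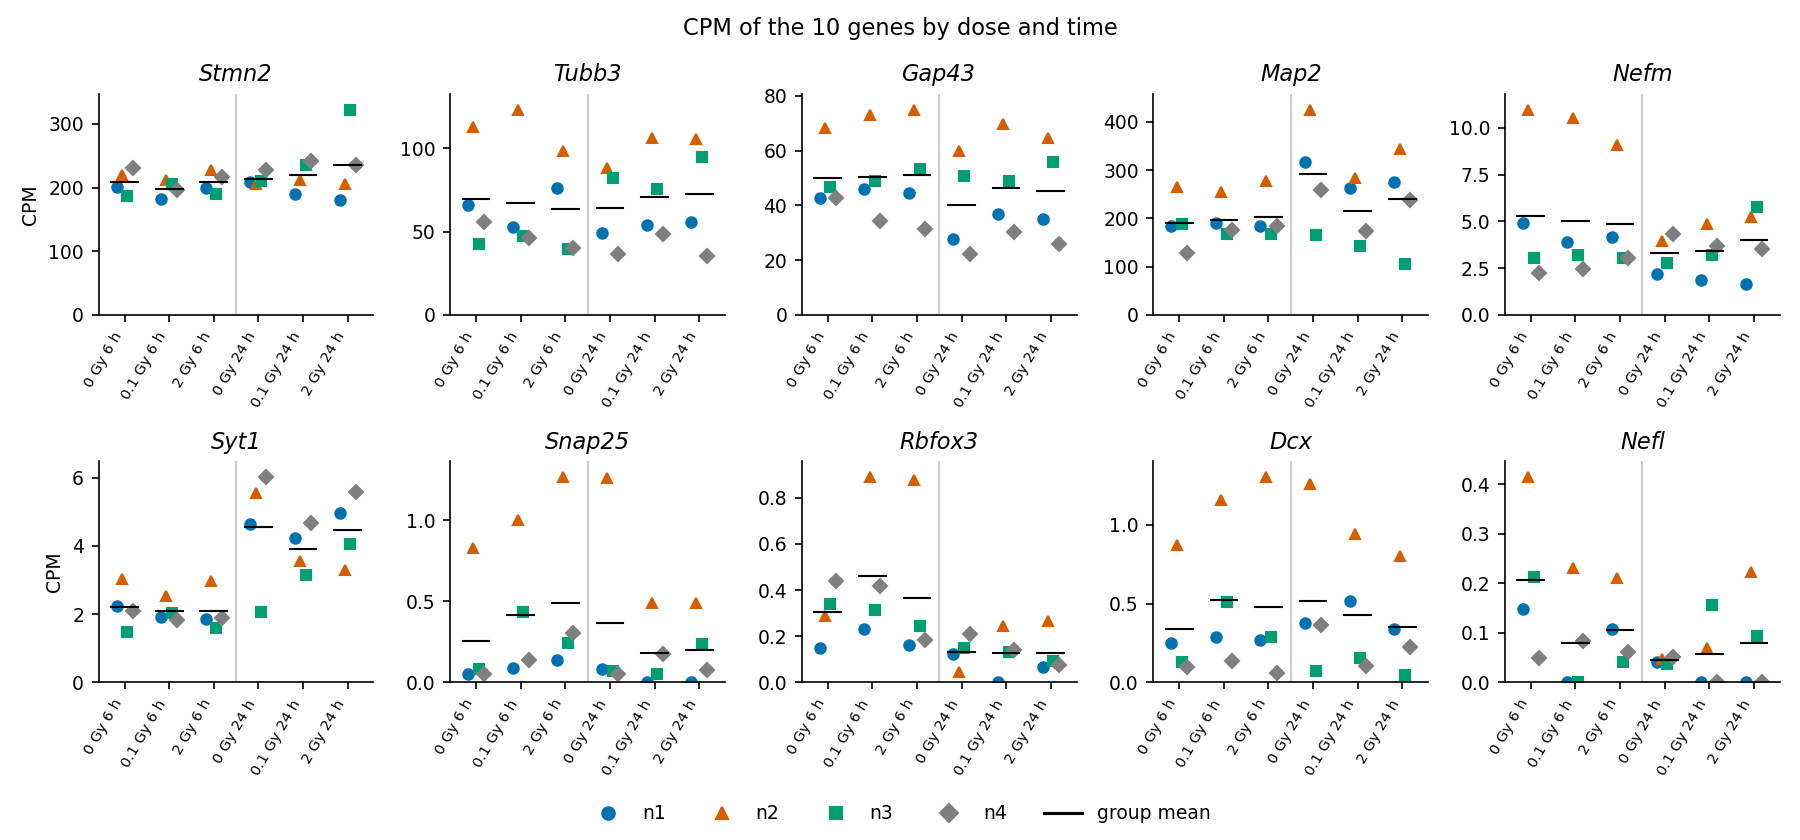
CPM of each gene in the 6 groups of 4 libraries, with the replicate number as symbol and the group mean as black line (linear axes from 0). Triangles (n2) are the highest in each 6 h group for Tubb3, Gap43, Map2, Nefm, Syt1, Snap25 and Dcx, and Syt1 is higher at 24 h than at 6 h.

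Over the 6 groups, the order of the mean levels was loose. Of the 15 pairs of groups, none was without overlap for Tubb3, Map2, Stmn2, Dcx, Gap43, Snap25, Nefl and Nefm, and 1 was for Rbfox3 and 6 for Syt1. Of the 17353 genes tested, 37.4% had at least 1 such pair and 11.8% at least 6. The highest group mean exceeded the lowest by 1.15 times for Tubb3, 1.19 times for Stmn2, 1.27 times for Gap43 and 1.52 times for Map2. The means of Tubb3 ran from 63.5 ± 28.8 CPM (2 Gy, 6 h) to 72.8 ± 33.0 CPM (2 Gy, 24 h; SD, n = 4), and those of Stmn2 from 199 ± 12.6 (0.1 Gy, 6 h) to 236 ± 61.5 (2 Gy, 24 h). Gap43 ran from 40.1 ± 18.1 CPM (mock, 24 h) to 51.0 ± 18.4 (2 Gy, 6 h). The highest group mean exceeded the lowest by 1.56 times for Dcx, 1.59 for Nefm, 2.19 for Syt1, 2.73 for Snap25, 3.66 for Rbfox3 and 4.65 for Nefl. Neighbours in these orders overlapped, except for Syt1 between 0.1 Gy at 24 h (lowest 3.15 CPM) and mock at 6 h (highest 3.02 CPM).

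At 6 h after exposure no member passed the test at either dose. In the comparison of 0.1 Gy with mock at 6 h, 0 of the 6 members tested passed in edgeR (quasi-likelihood test, adjusted p under 0.05), and 0% of 16020 genes did. The same held for 2 Gy (0 of 6 members and 0% of 15994 genes). No member was under an unadjusted p of 0.05 in either (24 and 215 genes were), and DESeq2 (0 and 1 genes called) and limma voom (0 genes at both doses) called no member. When the number was fitted as a block, the count was again 0 at both doses. In that fit the log2 fold changes of the 6 members lay between -0.08 and 0.07 for 0.1 Gy, with a median of -0.07 beside 0.00 over all genes, and between -0.14 and 0.11 for 2 Gy. The narrowest interval was that of Stmn2, from -0.16 to 0.16 on the log2 scale for 2 Gy, and that of Nefm ran from -0.41 to 0.27. Snap25 was higher in 4 of 4 pairs of equal number after 0.1 Gy and after 2 Gy, and Dcx in 4 of 4 after 0.1 Gy. Of the 10 members, 2 were thus higher in 4 of 4 pairs after 0.1 Gy and 1 after 2 Gy, with 0 lower. The share of all genes with such agreement was not counted, here or below. Both comparisons share the mock libraries. For Snap25, raw counts in mock were 1, 20, 2 and 1 (n1 to n4), after 0.1 Gy 3, 26, 11 and 5, and after 2 Gy 5, 36, 6 and 5. In each pair the mock library was the lower, while the ranges of the groups overlapped. Snap25 did not enter the fit, and exact permutation tests of its CPM (two-sided, 4 against 4) gave p = 0.457 for both doses, with adjusted values of 0.92 over 26 such tests.

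At 24 h, Map2 was the only member to pass a dose comparison with all libraries included, and only at 0.1 Gy with the replicate number as a block. Its CPM in mock were 317, 425, 165 and 258 (n1 to n4), after 0.1 Gy 263, 283, 142 and 175, and after 2 Gy 274, 345, 105 and 237. Every irradiated library was below the mock library of its number, although the groups overlapped. The means were 291 ± 109 CPM in mock, 216 ± 68.1 after 0.1 Gy and 240 ± 101 after 2 Gy (SD, n = 4). Without the block, 0 of 7 members passed at 0.1 Gy (0% of 16183 genes, 241 of them under an unadjusted p of 0.05) and 0 of 6 at 2 Gy (0% of 15892 genes, 570 under 0.05), and no member was under 0.05 unadjusted. DESeq2 called 0 and 103 genes and limma voom 0 at both doses, with no member among them. In edgeR Map2 had a log2 fold change of -0.44 (SE 0.32, adjusted p = 0.94) after 0.1 Gy and of -0.27 (SE 0.39, adjusted p = 0.94) after 2 Gy. With the block, Map2 fell by 0.42 on the log2 scale after 0.1 Gy (SE 0.093, adjusted p = 0.029, edgeR), 1 of 7 members where 6.84% of all genes passed. After 2 Gy its log2 fold change was -0.31 (SE 0.10, adjusted p = 0.075), and 0 of 6 members passed beside 13.2% of all genes. The Map2 call at 0.1 Gy was lost in the blocked fit without n2 (-0.37, adjusted p = 0.13) and without n4 (-0.35, adjusted p = 0.21), where 0.13% and 0.0987% of all genes passed. It was also lost when the blocked fit was corrected for GC and length (-0.15, adjusted p = 0.23), where 360 of 16183 genes passed.

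No other member passed at 24 h with or without the block. Gap43 was higher in 4 of 4 pairs after 2 Gy, from 0.11 to 0.34 on the log2 scale, and in 3 of 4 after 0.1 Gy. Its CPM were 27.7, 59.9, 50.8 and 22.2 in mock (n1 to n4) and 35.0, 64.7, 56.0 and 25.8 after 2 Gy. The values of a pair lay close together while n2 and n3 were well above n1 and n4 in both groups. Its blocked log2 fold changes were 0.24 (SE 0.10, adjusted p = 0.15) and 0.20 (SE 0.087, adjusted p = 0.14) after 0.1 and 2 Gy. Without n3, the blocked fit called both Gap43 (0.35 and 0.22, adjusted p = 0.020 and 0.042, edgeR) and Map2 (-0.48 and -0.20, adjusted p = 0.0054 and 0.023), in fits where 23.2% and 33.1% of all genes passed. Tubb3 (0.16 and 0.15), Stmn2 (0.03 and 0.12), Nefm (0.02 and 0.24) and Syt1 (-0.16 and 0.03) did not pass. Dcx was lower in 4 of 4 pairs after 2 Gy, from 0.518 ± 0.513 to 0.353 ± 0.323 CPM (SD, n = 4), on 1 to 27 counts a library (exact permutation test, two-sided, p = 0.571). The median log2 fold change of the members tested with the block was 0.02 after 0.1 Gy and 0.13 after 2 Gy (5 of 6 higher), beside 0.00 over all genes for both.

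**Figure D4:**
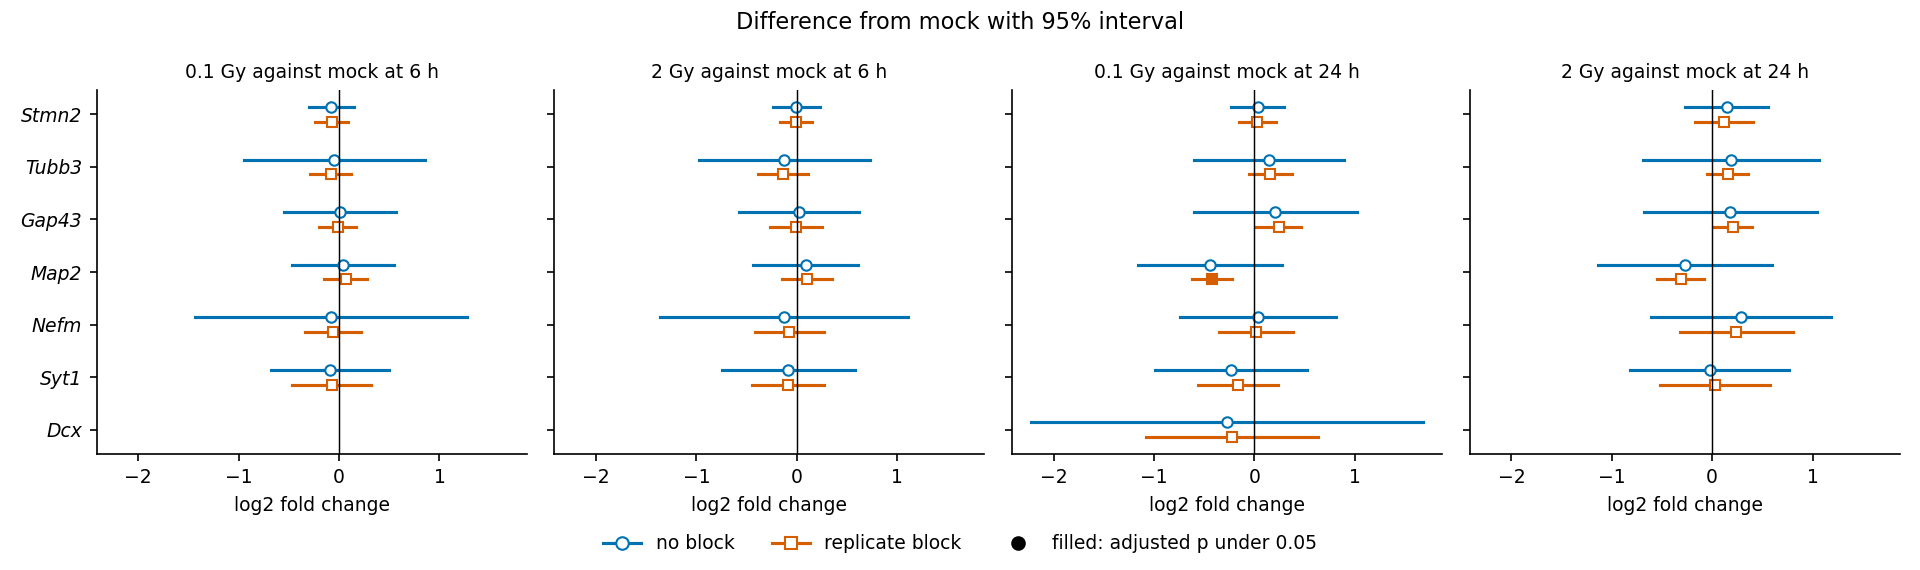
log2 fold change of each member tested against mock with its 95% interval for 0.1 and 2 Gy at 6 h and 24 h, without (circles) and with (squares) the replicate number as block. Only the blocked value of Map2 at 0.1 Gy and 24 h (-0.42) is filled, and the blocked intervals are narrower.

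Other neuronal genes at 24 h also passed in both directions with the block, where 6.84% (0.1 Gy) and 13.2% (2 Gy) of all genes did. Of 13 further cytoskeleton and growth cone genes tested, 2 were lower and 0 higher after 0.1 Gy, and 2 lower and 1 higher after 2 Gy. The lower genes were Map1b, a microtubule-associated protein of growing axons (log2 fold change -0.53, adjusted p = 0.029, and -0.40, adjusted p = 0.020), and Dclk1, a kinase related to doublecortin (-0.33, adjusted p = 0.044, and -0.38, adjusted p = 0.028). Tubb2a was higher after 2 Gy (0.29, adjusted p = 0.047). Of 13 further presynaptic genes, Syp, a membrane protein of synaptic vesicles, was higher after both doses (0.56, adjusted p = 0.048, and 0.57, adjusted p = 0.028). Of 10 genes of neuronal identity tested at 2 Gy, Elavl2 was lower (-0.71, adjusted p = 0.040). Among markers of other cells, Trem2 and C1qa of microglia (0.50 and 0.48, adjusted p = 0.016 and 0.017), Cnp of the oligodendrocyte lineage (0.49, adjusted p = 0.020) and Gfap and Aldh1l1 of astrocytes (0.36 and 0.34, adjusted p = 0.043 and 0.038) were higher after 2 Gy, and P2ry12 of microglia was lower (-0.52, adjusted p = 0.029). After 0.1 Gy, Olig1 (0.41, adjusted p = 0.029), Cnp (0.38, adjusted p = 0.031) and Trem2 (0.45, adjusted p = 0.046) were higher. Without the block none of these genes passed at either dose. In the blocked fit without n2, 0 of the 6 calls of these lists at 0.1 Gy and 0 of the 11 at 2 Gy remained, where 0.13% and 0.432% of all genes passed. The log2 fold changes there were -0.50 and -0.40 for Map1b, 0.41 and 0.52 for Syp and, after 2 Gy, 0.44 for C1qa.

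Syt1 was the member that passed the test of time in edgeR with all libraries of a comparison. In mock its CPM were 2.23, 3.02, 1.49 and 2.11 at 6 h (n1 to n4) and 4.63, 5.55, 2.06 and 6.01 at 24 h. After 0.1 Gy they were 1.93, 2.55, 2.04 and 1.83 at 6 h and 4.25, 3.56, 3.15 and 4.68 at 24 h, and after 2 Gy 1.87, 2.99, 1.59 and 1.89 at 6 h and 4.97, 3.30, 4.05 and 5.57 at 24 h. In all, 11 of the 12 libraries at 24 h were above the highest of the 12 at 6 h (3.02 CPM), the exception being n3 of mock. The groups did not overlap after 0.1 Gy and after 2 Gy, which was so for 19% and 18.1% of all genes tested, and overlapped in mock, where 15.3% of genes did not. The counts behind these levels were 31 to 85 at 6 h and 56 to 150 at 24 h.

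**Figure D5:**
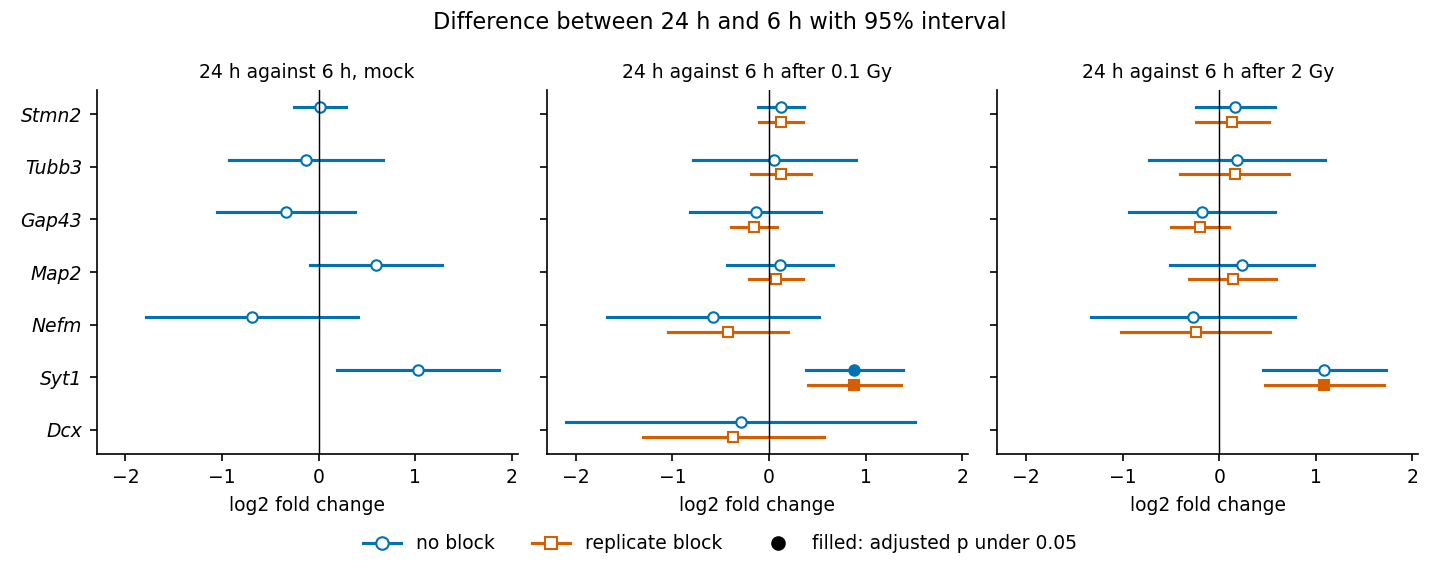
log2 fold change of each member tested between 24 h and 6 h with its 95% interval, for mock, 0.1 Gy and 2 Gy, without (circles) and, after 0.1 and 2 Gy, with the replicate number as block (squares). Syt1 lies at 1.03, 0.88 and 1.09 without the block, and filled symbols mark an adjusted p under 0.05.

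The test of time gave Syt1 a log2 fold change of 0.88 after 0.1 Gy (SE 0.22, adjusted p = 0.039, edgeR), 1.09 after 2 Gy (SE 0.28, adjusted p = 0.052) and 1.03 in mock (SE 0.37, adjusted p = 0.13). It was thus 1 of 7 members tested after 0.1 Gy, where 9.9% of all genes passed, and 0 of 6 passed after 2 Gy (6.95% of all genes) and in mock (6.7%). With the block it passed after 0.1 Gy (0.88, adjusted p = 0.014, where 25.7% of genes passed) and after 2 Gy (1.09, adjusted p = 0.024, 19.2%). A share of 1 member in 6 or 7 is near these backgrounds. DESeq2 called Syt1 after 0.1 and 2 Gy (adjusted p = 0.0025 and 0.0052) in fits that called 2568 of 30462 and 2120 of 30115 genes. Limma voom also called it (0.037 and 0.047), with 1758 of 16250 and 1165 of 16002 genes. Without the n2 libraries Syt1 passed after 0.1 Gy (1.04, adjusted p = 0.026, edgeR) and 2 Gy (1.45, adjusted p = 0.021), and not in mock (1.12, adjusted p = 0.12), where 14.4%, 7.33% and 7.44% of all genes passed. The blocked calls held without n2 as well (1.02, adjusted p = 0.023, and 1.43, adjusted p = 0.013), where 18.3% and 11.0% of all genes passed. At 0.1 Gy, leaving out n1, n3 or n4 of either time ended the call, with log2 fold changes from 0.79 to 0.99 and adjusted p from 0.055 to 0.12, in fits where 3.22% to 7.79% of all genes passed. After 2 Gy, the blocked call ended without n1 (0.99, adjusted p = 0.099) or n4 (0.95, adjusted p = 0.13), and after 0.1 Gy without n4 (0.72, adjusted p = 0.094).

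No other member passed this test with all libraries in edgeR. In mock, DESeq2 with the block also called Map2 (0.57, adjusted p = 0.038). Stmn2 (0.01, 0.13 and 0.17 in mock, after 0.1 Gy and after 2 Gy, log2 fold change of 24 h over 6 h) and Tubb3 (-0.13, 0.06 and 0.18) did not pass. Gap43 was at -0.34, -0.14 and -0.18 and lower at 24 h in 10 of 12 pairs. These include mock, where the numbers were not taken as pairs between times. Map2 was at 0.59 (SE 0.30), 0.11 (SE 0.24) and 0.24 (SE 0.33), and Nefm at -0.69 (SE 0.49), -0.58 (SE 0.49) and -0.27 (SE 0.47). Without n3, the blocked fit after 2 Gy also called Map2 higher at 24 h (0.41, adjusted p = 0.0064, edgeR), where 30.1% of all genes passed.

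Rbfox3, the marker of mature neurons, had too few counts for the fit of 2 groups. It was lower at 24 h in 12 of 12 pairs of equal dose and number, although in mock the numbers were not taken as pairs between times. Rbfox3 did enter DESeq2, edgeR without the filter on low counts and the fit of all 24 libraries, and none of them called it between times. Its raw counts at 6 h were 3, 7, 8 and 9 in mock (n1 to n4), 8, 23, 8 and 15 after 0.1 Gy, and 6, 25, 6 and 3 after 2 Gy. At 24 h they were 3, 1, 4 and 4, then 0, 7, 5 and 4, and 1, 6, 2 and 2. Of the 12 libraries at 24 h, 9 were below the lowest at 6 h in CPM. The group means went from 0.305 ± 0.122 to 0.132 ± 0.0671 CPM in mock, from 0.462 ± 0.294 to 0.128 ± 0.100 after 0.1 Gy and from 0.367 ± 0.342 to 0.126 ± 0.0951 after 2 Gy (SD, n = 4). Exact permutation tests (two-sided) gave p = 0.0571, 0.0571 and 0.143, where 0.029 is the smallest that 4 against 4 allows, and adjusted values of 0.50, 0.50 and 0.92 over 26 tests. Nefl, at 0 to 10 counts, was at 0.206 ± 0.154 CPM in mock at 6 h and 0.0443 ± 0.00664 at 24 h (SD, n = 4, exact permutation p = 0.0571, two-sided), and went from 0.0787 to 0.0565 CPM after 0.1 Gy (exact p = 0.714) and from 0.105 to 0.0793 after 2 Gy (exact p = 0.657). None of the 26 tests of members outside the fit was under 0.05. These tests do not use the pairs, so the spread between numbers enters them in full, and with 26 tests a single result at the smallest possible p could not pass after adjustment.

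Among the other neuronal lists, the genes that passed were mostly lower at 24 h, while the median of the presynaptic list was near 0. With the block after 2 Gy, where 19.2% of all genes passed, 6 of the 15 further cytoskeleton genes tested were lower at 24 h and 1 higher, 4 of 13 presynaptic genes lower and 2 higher, and 5 of 10 identity genes lower and 0 higher. After 0.1 Gy (25.7% of all genes) the counts were 7 lower and 0 higher, 4 lower and 1 higher, and 6 of 11 lower and 0 higher. Without the block, 1, 2 and 1 genes of the 3 lists were lower after 2 Gy and 1, 2 and 2 after 0.1 Gy, with 0 higher. The medians of the log2 fold changes after 2 Gy were -0.42, 0.00 and -0.49, beside 0.14 for the 6 members tested and -0.02 for all genes. Markers of other cells also differed between times in this fit after 2 Gy, with 1 higher and 1 lower of 11 astrocyte markers, 2 and 1 of 7 progenitor markers, 2 and 1 of 8 oligodendrocyte lineage markers, 0 and 2 of 6 fibroblast and vessel markers and 0 of 8 microglia markers. Named after their values were seen, Cspg4 of oligodendrocyte progenitors was at -1.69 (adjusted p = 0.0012, edgeR) and Sox9 of astrocytes and progenitors at 0.78 (adjusted p = 0.0091), and their part in the neuronal values was not tested. Tubb2a fell by 0.85 on the log2 scale after 2 Gy (adjusted p = 0.011, edgeR with the block). Syt4, a further synaptotagmin named here because its change was large, fell by 2.52 (adjusted p = 0.0018), from 3.35 to 0.654 CPM, opposite to Syt1. Sv2a, also named for its value, was higher at 24 h (0.74, adjusted p = 0.014). Without the block after 2 Gy, Tubb2a and Sv2a did not pass, and Syt4 did (-2.35, adjusted p = 0.046, edgeR). Without the block after 0.1 Gy, Tubb2a (-0.85, adjusted p = 0.020, edgeR) and Syt4 (-2.31, adjusted p = 0.032) passed. In mock Tubb2a passed without the block as well (-1.26, adjusted p = 0.016, edgeR). Without n2, the blocked fit after 2 Gy (11.0% of all genes) kept 5 of the 6 cytoskeleton, 3 of the 4 presynaptic and 2 of the 5 identity genes called lower, and 1 of the 3 called higher in these lists. After 0.1 Gy (18.3%) it kept 6 of 7, 4 of 4 and 6 of 6 called lower and 1 of 1 called higher. The calls kept after 2 Gy included Tubb2a (-0.93, adjusted p = 0.027), Syt4 (-2.92, adjusted p = 0.0047) and Sv2a (0.86, adjusted p = 0.030).

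The change with time did not differ between 2 Gy and mock for any member past the threshold. In the test of the interaction of 2 Gy and time, 0 of 8 members tested and 0% of 16866 genes passed without the block (827 genes and no member under an unadjusted p of 0.05; DESeq2 and limma voom called no member). With it, 0 of 8 members passed beside 6.78% of genes. The lowest adjusted p with the block was that of Map2 (-0.41, SE 0.16, adjusted p = 0.11, edgeR), followed by Snap25 (-1.65, SE 0.75, adjusted p = 0.15) and Dcx (-1.02, SE 0.48, adjusted p = 0.17). Syt1 had an interaction of 0.12 with a 95% interval from -0.56 to 0.81 on the log2 scale.

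The counting of reads limits 3 members. Nefl and Nefm lie on opposite strands of chromosome 14 and share 1108 exonic bases, so that reads there cannot be assigned without strand, and the few counts of Nefl beside Nefm (24 to 273 counts) are uncertain for this reason. Map2 shares 124 exonic bases with the antisense gene Gm10558. The labels do not state whether strand was used in counting. Of the other members, none shared exonic bases with another gene, though Tubb3 lies within the span of Gm20388 on the same strand.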

How the data were processed

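The deposited files hold raw read counts per gene, made by the authors from paired reads of poly(A)-selected mRNA (mm10 per the labels). The aligner, the counting tool and its use of strand are not given in the sources used here. Symbols and gene ends were taken from GENCODE M21 (GRCm38): 49056 of 49315 identifiers matched, and all 10 members had the same ends. The 10 genes and all lists of other genes were chosen with earlier results of these data known. Genes were filtered on low counts (filterByExpr), scaled by TMM and tested with edgeR 4.0.16 (R 4.3.3), using its quasi-likelihood test with Benjamini-Hochberg adjustment over all genes tested, and genes passed at an adjusted p under 0.05. Levels are CPM, per kilobase where genes are compared, and log2 levels used a prior count of 2. Members outside the fit were compared by exact permutation tests. Each comparison was also fitted with the replicate number as blocking factor. The deviations of same-numbered libraries from their group means correlated at 0.539 to 0.927 in the dose comparisons, and at 0.386 to 0.847 and 0.255 to 0.827 between times after 0.1 and 2 Gy, so the numbers were taken as pairs there. In mock the lowest value between times was 0.0645, and they were not. Libraries of unlike number were not compared in this check. Since n2 stood apart in every group, the other numbers can correlate through it, so the check does not establish their pairing. The interaction of 2 Gy and time was fitted with the number nested in time. DESeq2 1.42.0, limma 3.58.1 (voom), other scaling, filters, a GC and length correction and leaving out libraries were alternatives. Leaving out a whole number, and the test of the replicate number, were chosen after seeing the data. The p-values of the fits without the block and of the permutation tests measure the spread between the 4 repeats. The origin of these repeats in separate cultures is not given by the labels. P-values with the block measure the spread left within the numbers. Those of the test of the replicate number measure the spread left after dose and number. Code was tested on simulated data. Genes named outside the 10 were, from each list, the 2 with the highest level per kilobase and up to 3 with the lowest adjusted p past the threshold in each dose comparison, and the 5 most alike in level; other names are given with the reason. Of the genes named by this rule, 1 is not reported here.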

Additional observations from a re-analysis of the deposited data

Results flagged for a closer look

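Of the 60 sets of 4 values (10 genes in 6 groups), 8 had 1 library far from the others by Dixon's test, where chance gives about 1 in 20, and in all 8 the library was n2. They were Tubb3 after 0.1 Gy at 6 h (123 CPM, the others between 45.9 and 52.5), Map2 after 2 Gy at 6 h (278 CPM, the others between 167 and 184), and Gap43 in mock at 6 h (68.2 CPM, the others between 42.7 and 46.6). For Snap25 they were mock at 6 h (0.828 CPM, the others up to 0.0852), 2 Gy at 6 h (1.26 CPM, the others up to 0.306) and mock at 24 h (1.26 CPM, the others up to 0.0835). For Rbfox3 they were 2 Gy at 6 h (0.878 CPM, the others up to 0.245) and 2 Gy at 24 h (0.268 CPM, the others up to 0.0943). The same libraries were low in microglia markers, and the part of this in their neuronal levels was not tested.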

How the results depend on the processing

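The pairing check, which did not compare unlike numbers, was passed in all comparisons but the one between times in mock. In mock replicate n3 was the pair that did not correlate, and the blocked fit called 1 member, Syt1 (0.97, adjusted p = 0.026, edgeR, where 15.3% of genes passed). At 0.1 Gy and 24 h the count of members was 0 without the block and 1 with it in edgeR and in DESeq2 (Map2), and with n1, n2, n3 or n4 left out of the blocked fit it ranged from 0 to 2. At 2 Gy and 24 h that range was 0 to 2. Between times in mock, 0 passed without the block, 1 with the block and a GC and length correction (4218 of 15887 genes passed) and 1 with all 24 libraries in one fit (2488 of 17353), 2 with DESeq2 and the block (Syt1 and Map2, 3092 of 29991), and 0 to 4 when libraries or numbers were left out (4, Tubb3, Map2, Gap43 and Syt1, in the blocked fit without n3, where 45.4% of all genes passed). After 0.1 Gy the count of 1 fell to 0 with a log2 fold change of at least 1 required, with no filter on low counts (Syt1 0.88, adjusted p = 0.083), and ranged from 0 to 1 when libraries or numbers were left out. After 2 Gy the count of 0 became 1 with the block (3072 of 16002 genes passed), DESeq2 (2120 of 30115), DESeq2 with the block (3442 of 30115), limma voom (1165 of 16002), the block with a GC and length correction (4687 of 16002), at least 10 counts in every library (1131 of 13967), and all 24 libraries in one fit (2543 of 17353), and ranged from 0 to 2 when libraries or numbers were left out. The causes were not tested. No direction of Map2 at 0.1 Gy and 24 h or of Syt1 between times reversed under any of these alternatives (Map2 from -0.63 to -0.15 and Syt1 from 0.70 to 1.45 on the log2 scale). The 60 group levels moved by less than 1 SD under 2 other scalings. Dcx, Snap25, Rbfox3 and Nefl rest on 37 counts or fewer a library.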
